A study of Homo sapiens with 12 samples.

Results

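The 10 quiescence and growth-restraint genes BTG1, BTG2, TOB1, FOXO1, FOXO3, PIK3IP1, CCNG2, TXNIP, KLF2 and KLF6 were followed in MM1S cells, a human multiple myeloma line, during treatment with NGI-1. NGI-1 is a small molecule that inhibits the oligosaccharyltransferase (OST) complex, the enzyme that attaches N-linked sugar chains to proteins in the endoplasmic reticulum. The genes were chosen by symbol with earlier results of these data known, so their counts beside all features are a description. All 10 were present among the 59276 features of the deposited table, and all 10 were among the 11939 features that passed the filter on low values. Total RNA was sequenced from 12 libraries, 3 in each of 4 groups: untreated cells labelled day 0, and cells harvested after 2, 3 and 5 days with NGI-1. The labels name NGI-1 as the treatment of the day 0 libraries too. These were taken as untreated because the study's text calls them so, and neither a vehicle nor the harvest time of these cells is settled by the labels. No untreated group is labelled day 2, 3 or 5, so time in culture and NGI-1 cannot be told apart. The labels do not say whether replicates came from separate cultures. The study's general statement on statistics speaks of biological replicates without naming this experiment, so the p-values measure the spread between these libraries, which may be technical in part.

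Quiescence is a reversible exit from the cell cycle that dividing cells enter when growth signals are low. The transcription factors FOXO1 and FOXO3 are held out of the nucleus by the kinase AKT, and enter it when the PI3K and AKT pathway is quiet, where they switch on genes that slow division. PIK3IP1 is a membrane protein that restrains PI3K itself. BTG1, BTG2 and TOB1 are antiproliferative adaptors that bring the CCR4-NOT deadenylase to messenger RNAs and shorten their tails. CCNG2 is an unconventional cyclin that slows the cycle and a known FOXO target. TXNIP is an alpha-arrestin that binds thioredoxin and lowers glucose uptake, and KLF2 and KLF6 are zinc finger transcription factors, of which KLF2 is known for keeping T cells quiescent. Myeloma is a tumour of plasma cells, a cell type that secretes large amounts of glycosylated antibody. Whether these genes act as brakes in MM1S cells was not tested.

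The promoter windows of these genes were read for short DNA words: forkhead words for the FOXO factors, a KLF word, the GC box and the E-box. The E-box was searched as an element of MondoA and MLX, not of the factors named above. The windows run from 250 bases before to 50 bases after each RefSeq transcription start on GRCh38.p14, and the 10 genes have 16 of the 35116 windows. The forkhead word TGTTTAC, searched on both strands, was present in 3 of the 16 windows and in 3.42% of all windows. It lay 209 bases before the start of BTG1 (chr12:92146037-92146066, minus strand), 124 bases before that of TXNIP and 17 bases after that of PIK3IP1 (chr22:31292454-31292483, minus strand). The sequences below are shown because these 3 genes are among those called higher with NGI-1 at day 2. They are written 5′ to 3′ on the strand of the gene, with the word in capitals.
BTG1: ccgggtttattTGTTTACaagcggattacg
PIK3IP1: taaagagaggcTGTTTACcagaacagcata

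The 250 bases before the start of TXNIP (chr1:145996580-145996829, minus strand) hold the forkhead word as its reverse complement, followed by 2 copies of CACGAG, a variant of the E-box that was added to the search after this window had been read. CACGAG was present in 2 of the 16 windows, for TXNIP and FOXO3, and in 6.78% of all windows. Both words are in capitals.
TXNIP: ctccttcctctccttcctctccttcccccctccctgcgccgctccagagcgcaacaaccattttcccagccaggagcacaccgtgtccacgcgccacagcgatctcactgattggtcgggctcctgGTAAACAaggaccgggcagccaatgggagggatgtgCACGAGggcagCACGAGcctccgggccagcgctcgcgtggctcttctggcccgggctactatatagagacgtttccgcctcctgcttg

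The canonical E-box CACGTG was present in 2 of the 16 windows, for CCNG2 and KLF6, and in 7.26% of all windows. It lay 30 bases before the start of CCNG2 (chr4:77157165-77157194, plus strand), directly before a GC box, and 97 bases before that of KLF6 (chr10:3785289-3785318, minus strand). Its capitals mark the E-box.
CCNG2: tccgcggggagtCACGTGccccgccccctt
KLF6: cgcggggcgagtCACGTGgggggaggggga

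The other forkhead word searched, TGTTTGC, was present in 2 of the 16 windows, for KLF6 and TOB1, and in 3.89% of all windows. The GC box GGGCGGGG was present in 8 of the 16 windows and in 22.8% of all windows. Those 8 windows belong to 6 genes (BTG2, CCNG2, FOXO1, FOXO3, KLF2 and TOB1). The KLF word CCACACCC was in none of the 16 windows and in 3.28% of all. A match describes the letters of a window and does not show that a factor binds there.

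The authors deposited the log2 of TPM plus 1. TPM is a share of the transcripts in a library corrected for transcript length, so levels of different genes can be set side by side, but a TPM value keeps no count of reads and its counting error is unknown. The labels state over 60 M read pairs per library. Each NGI-1 day was compared with the same untreated libraries by limma, a linear model with a moderated test, and p-values were adjusted by the Benjamini-Hochberg method over all 11939 features. Genes were called higher or lower where the adjusted p lay under 0.05 and the log2 fold change exceeded 0.5 in either direction. The median log2 fold change of all features was -0.18, -0.73 and -0.99 at days 2, 3 and 5. Every comparison was therefore also made after median rescaling, which divides a library by the factor that brings the median of its log2 ratios to the average library to 0. The medians of all features then became 0.01, -0.03 and -0.02. A bulk measurement cannot tell fewer cells that express a gene from less of its RNA per cell. The libraries carried plasma cell markers, with the 10 listed summing to between 3054 and 4186 TPM. Single markers within this sum moved in opposite directions. TNFRSF17 averaged 577 TPM in untreated libraries and 2087 TPM at day 5, while XBP1 averaged 1547 and 366 TPM. At day 5, 7 of the 10 were called lower and 1 higher, beside 69.8% and 7.73% of all features. After rescaling 2 were called lower and 3 higher, beside 26.9% and 27.5%. The 12 markers of other cell types summed to between 9.26 and 32.1 TPM, with CD3D, EPCAM and PPBP at 0 in every library. That sum was 21.2 to 24.3 TPM in untreated libraries and 28.3 to 32.1 TPM in those of day 2. It was 14.2 to 19.2 TPM in those of day 3 and 9.26 to 13.8 TPM in those of day 5. Of these markers KRT18, PECAM1 and CD3E passed the filter. KRT18 averaged 13.2, 17.95, 6.12 and 4.59 TPM at days 0, 2, 3 and 5. PECAM1 averaged 5.54, 6.22, 3.44 and 1.74 TPM, and CD3E 2.998, 6.33, 5.79 and 4.01 TPM. On the deposited scale CD3E was called higher at days 2 and 3 (0.86 and 0.75). KRT18 and PECAM1 were called lower at days 3 and 5. After rescaling CD3E was called higher on all 3 days, and KRT18 at day 2. The part of these markers in the results was not tested.

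After 2 days, NGI-1 libraries had 5 of the 10 genes called higher than untreated cells (BTG1, BTG2, CCNG2, PIK3IP1 and TXNIP) and none lower, beside 8.04% of all features tested called higher and 23.2% lower. At day 3, 3 were called higher (CCNG2, PIK3IP1 and TXNIP) and 3 lower (FOXO1, FOXO3 and TOB1), beside 7.59% and 61.5% of all features. At day 5, 2 remained called higher (PIK3IP1 and TXNIP) and the same 3 were called lower, beside 7.73% and 69.8%. The median log2 fold change of the 10 genes was 0.54, 0.18 and -0.12 on the 3 days, and on each day 9 of the 10 lay above the median of all features. After median rescaling, 7, 6 and 6 genes were called higher and none lower, beside 12.9%, 23.9% and 27.5% of all features called higher and 11.4%, 24.2% and 26.9% called lower. At days 3 and 5 these 6 were BTG1, BTG2, CCNG2, KLF6, PIK3IP1 and TXNIP, and the median of the 10 genes was 0.75, 0.999 and 1.09. PIK3IP1 and TXNIP were thus called higher on all 3 days on both scales, and the lower calls of FOXO1, FOXO3 and TOB1 were made on the deposited scale only.

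**Figure D1:**
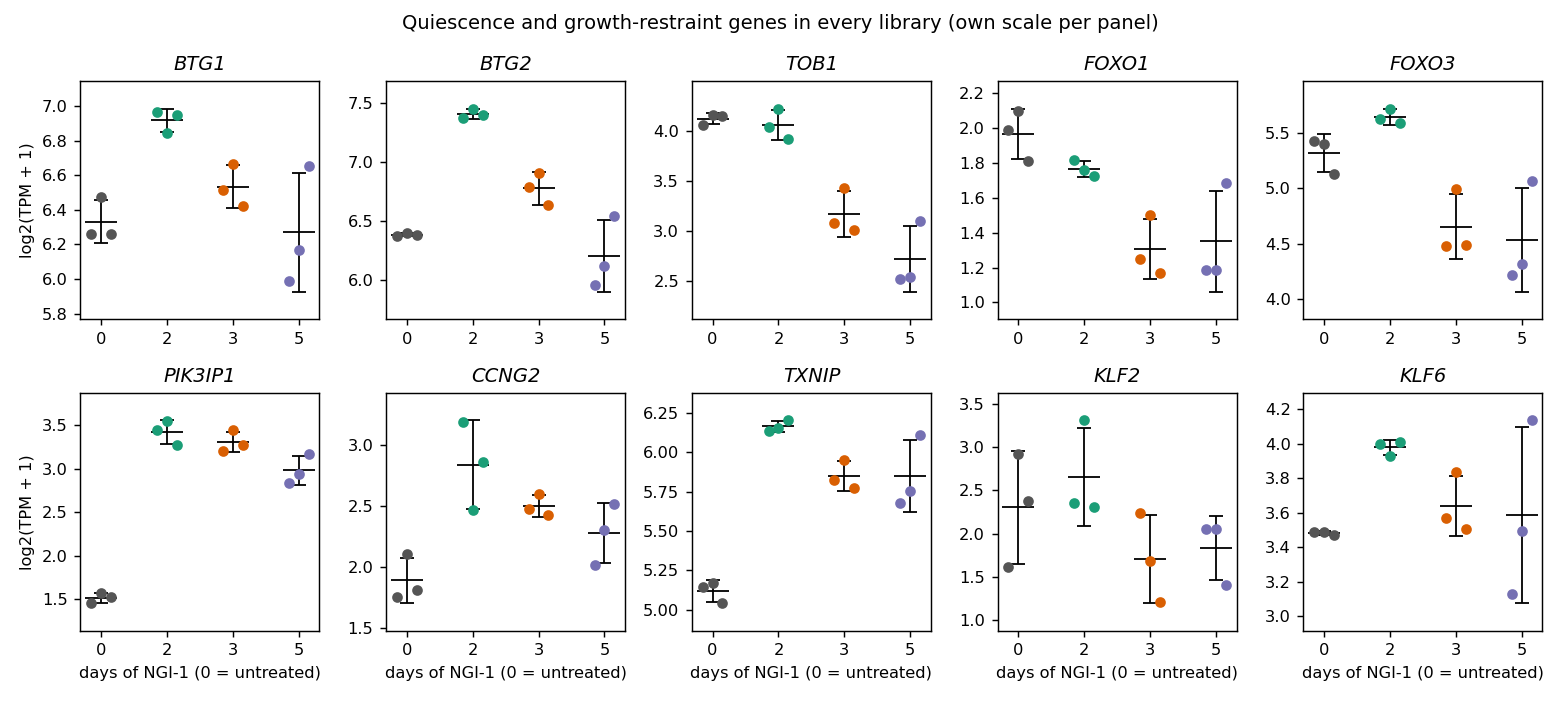
Level of each of the 10 genes as log2(TPM + 1) in the 12 libraries, by days of NGI-1 (0 is untreated), with points for libraries, bars for the mean and SD of the 3 libraries, and an axis of its own for each gene. PIK3IP1 and TXNIP lie above untreated on every NGI-1 day, BTG1 and BTG2 are highest at day 2, and TOB1 lies below untreated at days 3 and 5 on this deposited scale.

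**Figure D2:**
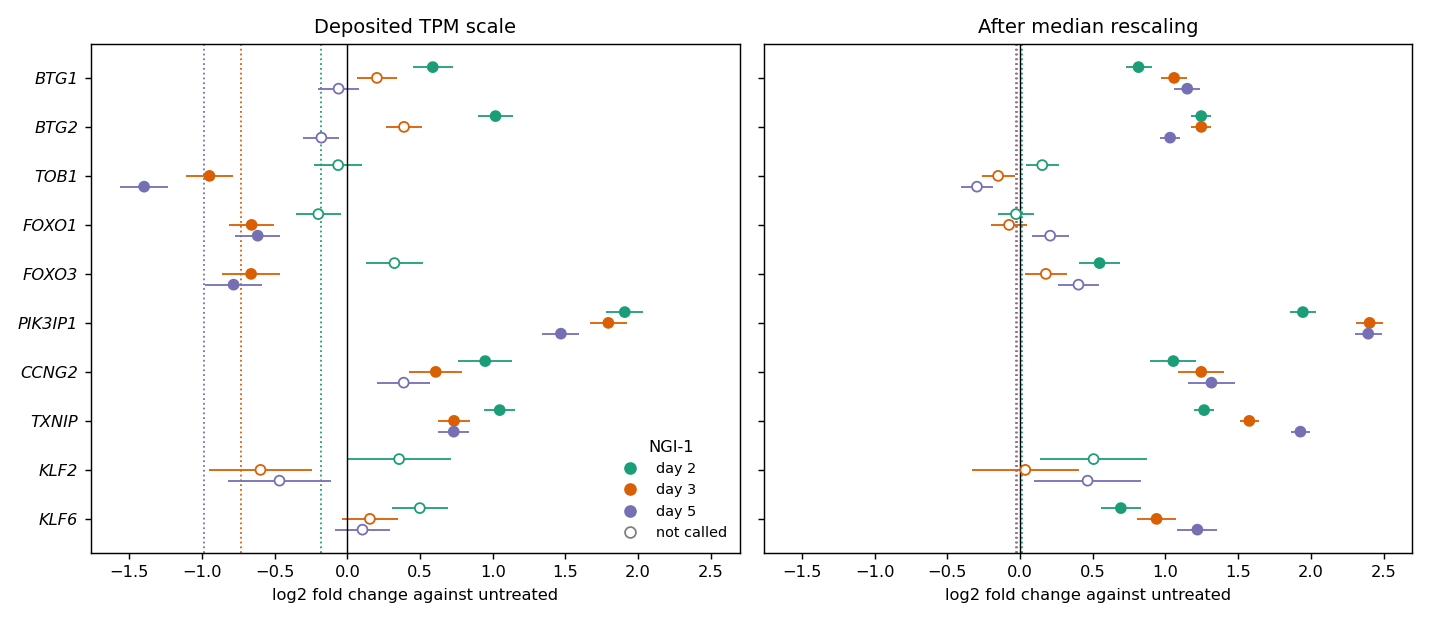
Log2 fold change of each gene against untreated at days 2, 3 and 5, on the deposited scale (left) and after median rescaling (right), with bars for the standard error, filled points for called genes and dotted lines for the median of all 11939 features on each day. PIK3IP1 and TXNIP are called higher in all 6 comparisons, and TOB1, FOXO1 and FOXO3 are called lower at days 3 and 5 in the left panel only.

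PIK3IP1, the restraint on PI3K, lies on chromosome 22 (GRCh38 31281593 to 31292534, minus strand). It rose most of the 10 genes. The untreated libraries had 1.73, 1.97 and 1.86 TPM, and the day 2 libraries 9.90, 10.7 and 8.65 TPM. The day 3 libraries had 8.25, 9.87 and 8.66 TPM, and those of day 5 had 6.14, 6.68 and 7.98 TPM. Every treated library lay above every untreated library, and the groups did not overlap. Its log2 fold changes were 1.91, 1.80 and 1.47 on the 3 days (SE 0.13; adjusted p from limma 1.1e-07, 3.1e-08 and 1.0e-07), and 1.95, 2.40 and 2.39 after median rescaling. At its low untreated level the log2 fold change, on the log2(TPM + 1) scale, understates the change. By signed log2 fold change on the deposited scale, it ranked above 99.6% of all features at day 2 and 98.5% at day 5. Features that fell count as below it in this ranking, however large their fall. It moved from the lowest level of the 10 genes in untreated cells to rank 6 at day 5. The antisense gene PIK3IP1-AS1 overlaps it in the annotation, and whether reads were counted by strand is not given in the sources used here.

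TXNIP, on chromosome 1 (145992435 to 145996600, minus strand), was the other gene called higher throughout. It had 34.3, 35.0 and 31.9 TPM in untreated libraries and 69.2, 70.3 and 72.8 TPM after 2 days. Day 3 libraries had 55.7, 61.0 and 53.7 TPM, and day 5 libraries 50.3, 53.1 and 68.1 TPM. Treated and untreated libraries did not overlap on any day. TXNIP changed by 1.05, 0.73 and 0.73 on the log2 scale (SE 0.11; adjusted p from limma 4.7e-06, 2.6e-05 and 2.0e-05), and after rescaling 1.27, 1.58 and 1.93. Day 3 was 0.31 below day 2 on the deposited scale and 0.31 above it after rescaling, both under the size needed for a call.

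BTG2 and BTG1 were the genes with the highest levels of the 10. BTG2, on chromosome 1 (203305491 to 203309602, plus strand), was measured at 82.2, 83.4 and 82.6 TPM in untreated libraries and 164, 174 and 168 TPM after 2 days. It then stood at 109, 119 and 98.4 TPM at day 3, above all untreated libraries, and at 61.2, 68.6 and 92.5 at day 5, where the groups overlapped. At day 2 BTG2 was higher by 1.02 on the log2 scale (SE 0.12; adjusted p from limma 2.1e-05), a call that held on both scales. It was 0.39 at day 3 and -0.18 at day 5, neither called, and 1.25 and 1.03 after rescaling, both called higher. Between neighbouring days BTG2 was called lower on both steps on the deposited scale, with differences of -0.63 from day 2 to day 3 and -0.57 from day 3 to day 5, against 0.00061 and -0.21 after rescaling, neither of them called. The latter step was not called without replicate 1 of day 5, at -0.44.

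BTG1, on chromosome 12 (92140278 to 92145897, minus strand), had 75.6, 87.9 and 75.6 TPM in untreated libraries and 124, 114 and 122 at day 2, with no overlap. The day 3 libraries had 90.4, 100.5 and 84.7 TPM and those of day 5 62.6, 70.8 and 99.6, both overlapping the untreated libraries. BTG1 was higher by 0.59 on the log2 scale at day 2 (SE 0.14; adjusted p from limma 0.0039), called higher on both scales. At days 3 and 5 it was 0.20 and -0.06, not called, and 1.06 and 1.15 after rescaling, both called higher. The noncoding genes LINC01619 and AC025164.1 overlap BTG1 in the annotation, at no more than 1.92 and 2.08 TPM in any library.

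TOB1, on chromosome 17 (50862223 to 50867978, minus strand), is related to the BTG genes and moved apart from BTG1 and BTG2. Untreated libraries had 15.6, 16.9 and 16.8 TPM, and day 2 libraries 15.4, 17.7 and 14.1. Day 3 libraries had 7.44, 9.80 and 7.04 TPM, and day 5 libraries 4.74, 4.85 and 7.57, with no treated library reaching an untreated one on either day. After rescaling the day 3 libraries overlapped the untreated ones, and those of day 5 still lay below them. The day 2 difference was -0.06 on the log2 scale, which turned to 0.15 after rescaling, neither called. At days 3 and 5 it was -0.95 and -1.40 (SE 0.16; adjusted p from limma 1.1e-04 and 2.0e-06), called lower, and -0.15 and -0.30 after rescaling, not called. TOB1 alone of the 10 lay below the median of all features at day 5, by -0.41. Its antisense gene TOB1-AS1 had no more than 0.82 TPM in any library. The related genes BTG3 and TOB2, outside the 10, also fell, from means of 50.2 and 8.32 TPM untreated to 21.5 and 3.48 TPM at day 5. On the rescaled log2 scale BTG3 averaged 5.105 untreated and 5.111 at day 5, and TOB2 2.71 and 2.66.

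Ratios of 2 genes within a library do not depend on how the library is scaled. BTG2 to TOB1 was 5.27, 4.95 and 4.93 in untreated libraries, 10.7, 9.85 and 11.9 in day 2 libraries, 14.7, 12.2 and 14.0 in day 3 libraries and 12.9, 14.1 and 12.2 in day 5 libraries. Every NGI-1 library lay above every untreated one, and the mean ratio went from 5.05 ± 0.19 (SD, n = 3) to 13.1 ± 0.97. The ratio of BTG2 to BTG1 averaged 1.04 ± 0.08 (SD, n = 3) in untreated cells and, with the same n, 1.41 ± 0.11, 1.19 ± 0.02 and 0.96 ± 0.03 on the NGI-1 days in order. Days 2 and 3 lay above untreated in each library, while day 5 fell within the untreated range of 0.95 to 1.09 in all but replicate 3, at 0.93.

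FOXO3, on chromosome 6 (108559835 to 108684774, plus strand), was the more abundant FOXO gene. Untreated libraries had 42.1, 41.3 and 33.9 TPM and day 2 libraries 48.3, 51.7 and 47, which lay above them. Day 3 libraries had 21.3, 30.9 and 21.5 TPM and day 5 libraries 17.6, 18.9 and 32.6, all below untreated on the deposited scale. After rescaling the day 3 libraries overlapped the untreated ones, and every day 5 library lay above every untreated one. FOXO3 was 0.32 above untreated on the log2 scale at day 2, not called, and 0.55 after rescaling, called higher. At days 3 and 5 it was -0.66 and -0.78 (SE 0.20; adjusted p from limma 0.0072 and 0.0021), called lower, and turned to 0.18 and 0.40 after rescaling, not called. From day 2 to day 3 it was called lower on the deposited scale, at -0.99, and stood at -0.37 after rescaling, not called. The near-identical copy FOXO3B was listed at 0.10 to 2.80 TPM, with 1.91, 2.80 and 2.22 in the untreated libraries, so FOXO3 is uncertain by up to the reads that such a copy can share.

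FOXO1, on chromosome 13 (40469953 to 40666597, minus strand), had 2.98, 3.28 and 2.51 TPM in untreated libraries and 2.52, 2.39 and 2.30 in those of day 2, which overlapped. Day 3 libraries had 1.38, 1.83 and 1.25 TPM and day 5 libraries 1.27, 1.27 and 2.21, below every untreated library on the deposited scale. After rescaling both days overlapped the untreated libraries. At these low levels the log2 fold change, on the log2(TPM + 1) scale, understates the change. It was -0.20, -0.66 and -0.62 (SE 0.16), with adjusted p from limma of 0.32, 0.0015 and 0.0022, and -0.03, -0.08 and 0.21 after rescaling, none called. The ratio of FOXO3 to FOXO1 averaged 13.4 ± 0.79 (SD, n = 3) in untreated cells and 20.4 ± 1.24, 16.5 ± 0.94 and 14.5 ± 0.55 on the NGI-1 days in order. Each library of days 2 and 3 lay above the untreated range of 12.6 to 14.1, and day 5 overlapped it.

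CCNG2, on chromosome 4 (77157151 to 77433388, plus strand), had 2.37, 3.29 and 2.51 TPM in untreated libraries. Day 2 libraries had 8.12, 4.51 and 6.26 TPM and day 3 libraries 4.55, 5.04 and 4.37, all above untreated. Day 5 libraries had 3.05, 3.93 and 4.70 TPM and overlapped the untreated libraries. CCNG2 differed from untreated by 0.95, 0.61 and 0.39 on the log2 scale (SE 0.18), with adjusted p from limma of 0.0010, 0.0079 and 0.063. Here too the log2(TPM + 1) scale understates the change at low levels. The day 5 value was not called, and without replicate 1 of day 5 it was 0.52 and called higher. After rescaling it was 1.05, 1.25 and 1.32, called higher on all 3 days.

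KLF6, on chromosome 10 (3775996 to 3785281, minus strand), had 10.2, 10.2 and 10.1 TPM in untreated libraries. Day 2 libraries had 15.01, 14.2 and 15.1 TPM and day 3 libraries 10.9, 13.3 and 10.4, all above untreated. Day 5 libraries, at 7.74, 10.3 and 16.6 TPM, lay on both sides of it. Its log2 fold changes against untreated were 0.498, 0.15 and 0.10 (SE 0.19). At day 2 the adjusted p from limma was 0.049, and the size fell just short of the threshold. After rescaling KLF6 was called higher on all 3 days, at 0.69, 0.94 and 1.22.

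KLF2, on chromosome 19 (16324817 to 16327874, plus strand), had 2.05, 6.55 and 4.21 TPM in untreated libraries and 4.12, 8.94 and 3.95 in those of day 2. Day 3 libraries had 3.70, 2.20 and 1.31 TPM and day 5 libraries 3.14, 3.15 and 1.66. The groups overlapped with untreated on every day, and the SE of 0.35 was the largest of the 10 genes. No NGI-1 day was called on either scale, with log2 fold changes of 0.36, -0.60 and -0.47, or 0.51, 0.04 and 0.46 after rescaling. Without replicate 1 of the untreated group, days 3 and 5 were called lower at -0.94 and -0.81. Day 3 was called lower than day 2 at -0.95 (adjusted p from limma 0.026), and this call was lost without replicate 2 of day 2 (-0.63), replicate 2 of day 3 (-0.94) or replicate 3 of day 3 (-0.70).

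Between neighbouring days the deposited scale gave 4 genes called lower from day 2 to day 3 (BTG2, FOXO3, KLF2 and TOB1), beside 55.5% of all features, and none higher, beside 3.22%. From day 3 to day 5 it gave BTG2 alone as lower, beside 13.1% of all features, and none higher, beside 0.67%. After rescaling no gene of the 10 was called in either step, beside 14.3% and 13.6% of all features called higher and lower in the earlier step and 4.43% and 2.03% in the later one. Replicate 2 of day 3 and replicate 3 of day 5 had the highest level of their groups for 9 of the 10 genes, KLF2 being the other. These 2 libraries also had the highest rescaling factors of their groups, 0.89 and 0.74. Without them the counts of called genes at days 2, 3 and 5 against untreated were the same, and TOB1 was also called lower from day 3 to day 5.

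The order of levels was led by BTG2 and BTG1 at every time. In untreated cells their ranges overlapped (82.2 to 83.4 and 75.6 to 87.9 TPM), as did those of FOXO3 and TXNIP (33.9 to 42.1 and 31.9 to 35.0). At day 2 BTG2, BTG1, TXNIP and FOXO3 followed each other without overlap. At day 5 TXNIP (50.3 to 68.1 TPM) overlapped BTG1 and BTG2, while FOXO3 (17.6 to 32.6) lay below it. FOXO1 had the lowest mean of the 10 from day 2 on.

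The known partners of these genes were taken from fixed lists, also chosen with earlier results of these data known. Their counts stand beside shares of all features at day 5 of 69.8% called lower and 7.73% higher, or 26.9% and 27.5% after rescaling. Of the BTG/TOB family and CCR4-NOT deadenylase list, 17 of 18 genes were tested, and at day 5 16 had fallen and none had risen (5 and 0 after rescaling, the 5 being close to the share of all features). CNOT1, the scaffold of the deadenylase, fell by 2.37, the most of this list, and was called on both scales (-1.23 after rescaling). Of the 7 KLF genes tested, 3 had fallen and none had risen at day 5 (1 and 1 after rescaling), a smaller share than the 69.8% of all features, with KLF16 lowest at -1.90 (-0.87 after rescaling). The 3 genes of the ZFP36 family, which also hasten mRNA decay, had 2 lower calls and no higher call (none and 1 after rescaling), the lower calls on the deposited scale being close to the share of all features. ZFP36L2 had the largest fall, -0.87, and turned to 0.31, not called, after rescaling.

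Of the FOXO family, its kinases and regulators, 19 of 20 genes were tested and 16 were called lower at day 5, none higher (6 lower and 2 higher after rescaling), beside 69.8% lower and 7.73% higher among all features (26.9% and 27.5% after rescaling). YWHAH, a 14-3-3 protein of the kind that holds FOXO factors in the cytoplasm, fell by 2.80 (-1.69 after rescaling). Of 20 listed FOXO target genes 14 were tested. At days 2, 3 and 5, 6, 3 and 2 of them were called higher and 1, 4 and 7 lower. Of all features, 8.04%, 7.59% and 7.73% were called higher and 23.2%, 61.5% and 69.8% lower. After rescaling 8, 9 and 10 targets were called higher and 1 lower on each day. The shares of all features were then 12.9%, 23.9% and 27.5% higher and 11.4%, 24.2% and 26.9% lower. The median of the targets was 0.30, -0.22 and -0.38, beside -0.18, -0.73 and -0.99 for all features. After rescaling it was 0.50, 0.60 and 0.76, beside 0.01, -0.03 and -0.02. BBC3, which encodes the apoptosis inducer PUMA, rose most at day 5, by 1.22 (2.18 after rescaling), from a mean of 2.31 to 6.71 TPM. SOD2, the mitochondrial superoxide dismutase, fell by 2.27 (-1.07 after rescaling). Of the PI3K subunits and phosphatases, 9 of 13 were tested, with 6 lower calls and no higher call at day 5 (3 and 2 after rescaling), and the lower calls were near the share of all features on both scales. INPP5D, a lipid phosphatase that degrades the product of PI3K, fell by 2.11 (-1.09 after rescaling).

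Of the alpha-arrestins, thioredoxin system and MondoA list, 12 of 15 were tested, and at day 5 8 were called lower and 2 higher (4 and 5 after rescaling), with the lower calls near the 69.8% of all features. ARRDC3, an alpha-arrestin related to TXNIP, rose by 1.08, from a mean of 8.65 to 19.4 TPM (2.21 after rescaling). SLC2A1, the glucose transporter GLUT1, fell by 1.97 (-0.86 after rescaling). All 8 tested genes of the cyclin G family and its partners were called lower, beside 69.8% of all features. After rescaling 2 were called lower, near the 26.9% of all features. PPP2R5D, a regulatory subunit of the phosphatase PP2A, stood at -2.35, and at -1.24 after rescaling. Of the 13 genes of the DREAM complex, which represses cell-cycle genes in quiescent cells, and its kinases, 11 were called lower and 1 higher (6 and 2 after rescaling). RBL1, the pocket protein p107, fell by 3.12 (-2.19 after rescaling). DYRK1B, a kinase known for its activity in quiescent cells, rose by 0.50, with a mean of 1.31 TPM in untreated cells and 2.30 at day 5 (1.28 after rescaling). Of 16 p53 target genes 12 were called lower and 1 higher (5 and 4 after rescaling), again near the shares of all features. TP53INP1 rose by 0.87 (1.97 after rescaling), and DDB2, a DNA damage sensor, fell by 2.79 (-1.78).

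**Figure D3:**
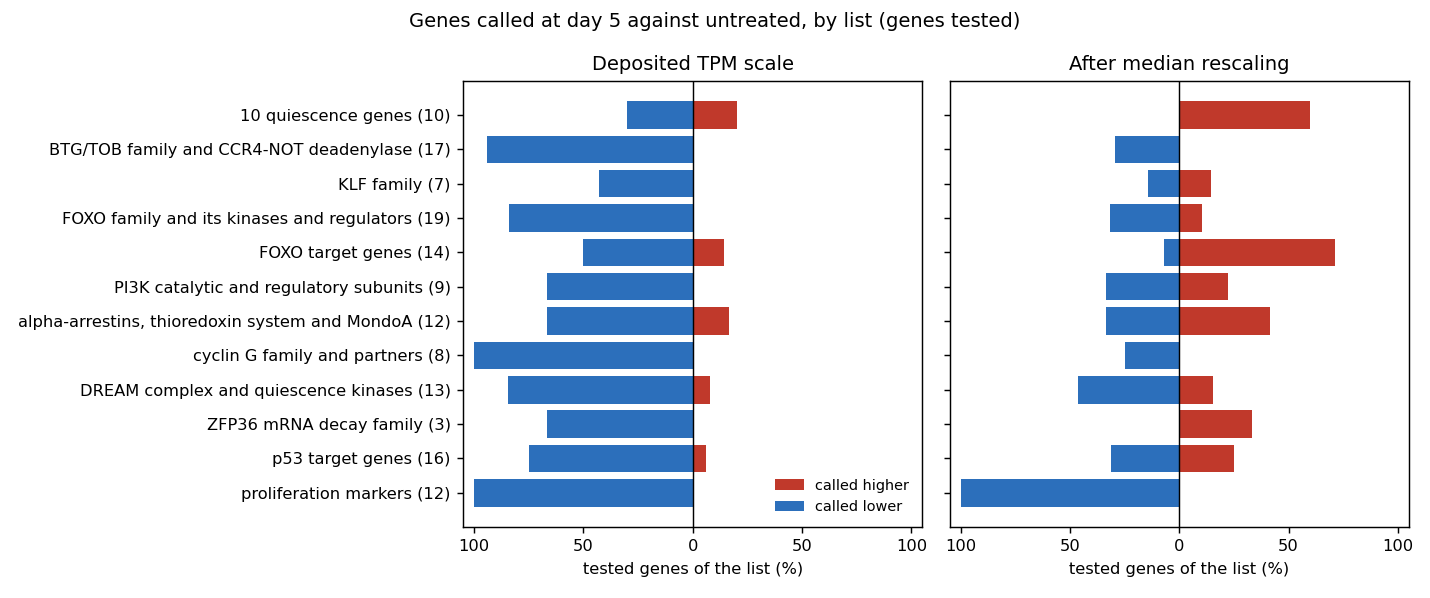
Share of the tested genes of each list (number in brackets) called higher (red, to the right) or lower (blue, to the left) at day 5 against untreated, on the deposited scale and after median rescaling. The 10 quiescence genes go from 2 higher and 3 lower to 6 higher and 0 lower, the FOXO target genes from 2 and 7 to 10 and 1, and the 12 proliferation markers are all called lower on both scales.

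All 12 proliferation markers were called lower at days 2, 3 and 5 on both scales. Their summed level lay between 991.5 and 1052 TPM in untreated libraries, 274 and 285 TPM in day 2 libraries, 51.2 and 59.7 TPM in day 3 libraries, and 28.96 and 32.4 TPM in day 5 libraries. CCNB1, the mitotic cyclin B1, fell by 6.18 at day 5 (-5.16 after rescaling), the most of these markers on the deposited log2 scale, from a mean of 200.4 to 1.79 TPM. After rescaling CDC20, an activator of the mitotic ubiquitin ligase, was the lowest at -5.23. The part of this change in the levels of the 10 genes was not tested.

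The features whose levels ran most like those of a gene were sought by Pearson's r over the 12 libraries, for the 5 genes whose group means spanned over 1 on the log2 scale. The points share 4 groups and the scale of their libraries, so r is a description only. PIK3IP1 ran closest to C4B (r = 0.996) and ISG15 (0.992), and r was 0.997 and 0.990 after rescaling. TXNIP ran closest to BCL2 (0.981) and TGFBR2 (0.981), with 0.989 and 0.995 after rescaling. For BTG2 these were SUMF2 (0.990) and NCF1C (0.986), with 0.966 and 0.991 after rescaling. For FOXO3 they were TMEM131 (0.991) and CBX6 (0.986), with 0.971 and 0.945 after rescaling. TOB1 ran closest to MAPKAPK2 (0.994) and BECN1 (0.994), and here r was 0.761 and 0.777 after rescaling.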

How the data were processed

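The authors deposited 1 table of log2(TPM + 1) values with gene symbols, in which the TPM of all libraries reach the same sum but for rounding. Their processing notes name FastQC, Trimmomatic, STAR, Salmon and hg38. Versions, annotation and strand setting are not given in the sources used here. Features reaching 1 TPM in 3 or more libraries were fitted with limma 3.58.1 (R 4.3.3): 1 mean per group, a mean-variance trend and two-sided tests on the log2 scale with a pseudocount of 1, 5 contrasts, and Benjamini-Hochberg adjustment within each contrast. TPM keeps no depth, so precision rests on the spread of 3 libraries per group. Median rescaling used the 5433 features averaging 10 TPM or more. In simulated data for day 5 against day 0 with 11939 features, 100 of 100 genes changed by 2 (log2) and 90 of 100 changed by 1 were called, with 7 false calls. The changed genes were drawn from features with a mean log2 level over 2, and no shift across whole libraries was simulated. The simulation therefore does not cover genes as low as FOXO1 or the choice of scale. Coordinates are from GENCODE release 29 (GRCh38) and promoter windows from RefSeq. The 10 genes and all lists were chosen with earlier results of these data known. All 10 genes are named, together with the largest rise and fall at day 5 among called genes of each list, and the 2 features most like each gene whose means spanned over 1 on the log2 scale. Figures were drawn with matplotlib 3.10.9. The alternatives were median rescaling, dropping the filter or raising it to 5 TPM, a pseudocount of 0.1, removal of the 20 most abundant features, a fit for each pair of groups, a fit with no trend, a fold change threshold of 1, leaving out each library, and, chosen after seeing the data, leaving out replicate 2 of day 3 with replicate 3 of day 5. A comparison of protein sequences was planned and was not run.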

Additional observations from a re-analysis of the deposited data

Results flagged for a closer look

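Levels on neighbouring NGI-1 days differed by the direct test between the days for 4 genes on the deposited scale. These days also differ in time in culture, which cannot be told apart from time with NGI-1. From day 2 to day 3 the log2 fold change was -0.63 for BTG2, -0.99 for FOXO3, -0.95 for KLF2 and -0.88 for TOB1, with adjusted p from limma of 5.1e-04, 6.0e-04, 0.026 and 3.3e-04. From day 3 to day 5 it was -0.57 for BTG2 (adjusted p from limma 0.0055). The median of all features was -0.57 and -0.25 in these steps, so BTG2 lay -0.06 and -0.32 from it, FOXO3 -0.41, KLF2 -0.38 and TOB1 -0.31. After median rescaling none of the 5 steps was called. Every group held 3 libraries, so no library was tested as standing apart.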

How the results depend on the processing

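Median rescaling gave 6 genes called higher and 0 lower at days 3 and 5, and 0 lower from day 2 to day 3 and from day 3 to day 5. It changed the sign of 19 of 50 log2 fold changes: day 2 TOB1 0.15; day 3 KLF2 0.036 and FOXO3 0.18; day 5 BTG1 1.15, BTG2 1.03, KLF2 0.46, FOXO1 0.21 and FOXO3 0.40; day 3 against day 2 BTG1 0.24, BTG2 0.00061, TXNIP 0.31, KLF6 0.25, CCNG2 0.19 and PIK3IP1 0.46; day 5 against day 3 BTG1 0.091, TXNIP 0.35, KLF6 0.28, FOXO3 0.22 and CCNG2 0.070. Without the 20 most abundant features, 1 gene was called lower at day 5 (TOB1) and 2 from day 2 to day 3 (FOXO3 and TOB1), FOXO3 also lost its day 3 call (-0.42), higher calls were gained by KLF6 at day 2 (0.60), BTG2 at day 3 (0.64) and CCNG2 at day 5 (0.68), and signs changed for BTG1 (0.26) and BTG2 (0.14) at day 5, TXNIP (0.068) and KLF6 (0.012) from day 3 to day 5, PIK3IP1 (0.031) from day 2 to day 3 and TOB1 (0.025) at day 2. With a fold change threshold of 1, 3 genes were called higher at day 2, 1 at day 3 and 1 at day 5, 0 lower at day 3 and 1 at day 5, and 0 lower in both steps between neighbouring days, since fewer genes can pass it. A pseudocount of 0.1 gave 2 called lower from day 3 to day 5 (BTG2 and TOB1) and a lower call of FOXO1 from day 2 to day 3 (-0.67). Leaving out replicate 2 of day 3 with replicate 3 of day 5 gave the same 2 and FOXO1 (-0.56), lost KLF2 from day 2 to day 3 (-0.94), and turned KLF6 at day 5 to -0.17 and FOXO1 from day 3 to day 5 to -0.028. With no filter KLF2 lost its call from day 2 to day 3. A TPM minimum of 5 left out KLF2 and FOXO1. Pairwise fits and a fit with no trend changed no call. Other than by the construction named, the cause of these differences was not tested.

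Leaving out each library in turn gave 0 to 2 genes called lower from day 3 to day 5, 0 without replicate 1 of day 5 and 2 (BTG2 and TOB1) without replicate 3 of day 3 or of day 5. TOB1 was then -0.53 and -0.64. FOXO1 was called lower from day 2 to day 3 without replicate 2 of day 3 (-0.56), and CCNG2 without replicate 2 of day 2 (-0.53). The signs of 8 values changed: BTG1 at day 5 (-0.25 to 0.079), KLF6 at day 5 (-0.17 to 0.33), TOB1 at day 2 (-0.15 to 0.0071), and from day 3 to day 5 TXNIP (-0.13 to 0.082), KLF2 (-0.12 to 0.39), KLF6 (-0.33 to 0.18), FOXO1 (-0.12 to 0.14) and FOXO3 (-0.39 to 0.049). The counts at day 2 did not change, and neither did the calls of PIK3IP1 and TXNIP against untreated. No paired analysis was possible because replicates are numbered in accession order and the labels pair no libraries. The deposited values hold no counts, no RNA amount per cell and no strand, and 3 libraries per group limit the precision for genes of a few TPM, such as KLF2, FOXO1 and CCNG2.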
